A study of Mus musculus with 12 samples.

Results

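The 10 miRNA names described here are both arms (5p and 3p) of the hairpins miR-337, miR-433, miR-127, miR-434 and miR-136, which lie in and beside the imprinted gene Rtl1 on mouse chromosome 12. They were taken by name from a table of 1652 mature miRNA names, and all 10 were found in it. The samples were kidneys of untreated wild-type (WT) mice, with 6 libraries from day 8 and 6 from day 0. The labels give no strain, sex, litter or batch, and they do not say whether each library is a different animal. The p-values thus only set the difference between the ages against the spread among these samples, and some of that spread may be technical. Small RNA was sequenced because the study looked for miRNAs that change after birth and might regulate Nr3c2, the gene of the mineralocorticoid receptor, which binds aldosterone.

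A miRNA hairpin is cut into a duplex of a 5p and a 3p arm, and the arm that is kept guides the silencing complex to messenger RNAs, mainly through its seed, bases 2 to 8. The Dlk1-Dio3 region is imprinted: the coding genes Dlk1, Rtl1 and Dio3 are expressed from the paternal chromosome, and the non-coding RNAs and miRNAs from the maternal one. The miRNAs made from the transcript antisense to Rtl1 are fully complementary to the Rtl1 message and are known in mouse to direct its cleavage. Rtl1, a gene derived from a retrotransposon, is needed for the fetal capillaries of the mouse placenta. The parental chromosome of a read was not measured here.

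The mature sequences are shown for their seeds, which set the messages each arm can pair with. Apart from those of miR-337, they are also the other strand of Rtl1 itself. They are RefSeq's (GRCm38.p6), written 5′ to 3′ with the seed in capitals and given in the order of the hairpins along the strand that encodes them:
miR-337-5p: cGGCGUCAugcaggaguugauu
miR-337-3p: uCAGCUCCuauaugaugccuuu
miR-433-5p: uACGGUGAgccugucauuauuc
miR-433-3p: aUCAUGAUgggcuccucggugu
miR-127-5p: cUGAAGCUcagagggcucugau
miR-127-3p: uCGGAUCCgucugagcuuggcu
miR-434-5p: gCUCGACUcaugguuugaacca
miR-434-3p: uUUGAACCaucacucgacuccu
miR-136-5p: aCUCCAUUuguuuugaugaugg
miR-136-3p: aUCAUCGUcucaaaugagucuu

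The 10 arms carry 10 different seeds. None of them is shared with any other of the 1409 table names that had a RefSeq sequence. The arms of miR-434 share a run of 9 bases, which starts at base 14 of the 5p arm and at base 1 of the 3p arm. In the other hairpins the longest run shared by both arms was 4 or 5 bases.

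All 5 hairpins are encoded on the plus strand of chromosome 12 (GRCm38, GENCODE M21 and RefSeq), within 9600 bases. The miR-337 hairpin lies at chr12:109585789-109585885. It is intergenic in GENCODE, 3308 bases from the end of the Rtl1 gene, so it is not antisense to the annotated Rtl1 exon. The hairpins of miR-433 (chr12:109591715-109591838), miR-127 (chr12:109592846-109592915), miR-434 (chr12:109594506-109594599) and miR-136 (chr12:109595327-109595388) lie within 3674 bases of each other. Each of these 4 sits wholly within the Rtl1 coding sequence (chr12:109590172-109595403), which is read from the minus strand.

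The complement of the whole 22-base arm was found in the Rtl1 transcript for all 8 arms of these 4 hairpins, and for neither arm of miR-337. The site of miR-127-3p covers bases 2495 to 2516 of the Rtl1 coding sequence and that of miR-136-5p bases 52 to 73. They are shown because they pair along their whole length, and in the Rtl1 message they read, 5′ to 3′:
miR-127-3p site: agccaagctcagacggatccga
miR-136-5p site: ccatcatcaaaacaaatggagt
No transcript of any other protein-coding gene in GENCODE M21 held a full complement of any of the 10 arms. Hairpins annotated on the opposite strand, Mir3544 at miR-337 and Mir3071 at miR-136, were named after their values were seen. Over all 12 libraries miR-3544-5p had 7 reads, miR-3544-3p 1 read and miR-3071-3p 3 reads.

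The values are in CPM, a name's share of the miRNA reads of its library times 1000000, and they do not count molecules in a cell. In bulk kidney, fewer cells of a type that makes a miRNA and less of it per cell cannot be told apart. The day 8 libraries held 5.16 to 11.8 M miRNA reads and the day 0 libraries 3.37 to 9.05 M (M, 1000000). The 8 kidney miRNAs listed as tissue markers, among them miR-192-5p and miR-30a-5p, were all found. Their summed CPM was 87768 to 99658 at day 8 and 65383 to 72118 at day 0. Of these 8, 6 were called higher at day 8 and 1, miR-196a-5p, lower (limma adjusted p under 0.05). Of all names tested 16.5% were called higher and 48.2% lower.

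The arms were lower at day 8 than at day 0. The filter kept names that reached 1 CPM in 6 or more libraries, and 9 of the 10 arms passed it. Of these, 9 fell and 0 rose (limma on log2(CPM + 1), Benjamini-Hochberg adjusted p under 0.05 over all names tested). Calls were common in these libraries: 64.7% of all names tested differed, 48.2% being lower and 16.5% higher. For 8 of the 9 arms all day 8 libraries lay below all day 0 libraries, as did 35.1% of the names tested. A fall of at least 1 on the log2 scale was called for 7 of the 9 arms and for 24.3% of names. The exact permutation test on CPM, unadjusted, put all 9 arms lower at p under 0.05, along with 48.4% of names. The median log2 change of the 9 arms was -1.40, and that of all names tested was -0.34. A log2 change here is day 8 minus day 0 on log2(CPM + 1), and the added 1 understates the change of low names. The tenth arm, miR-433-5p, had too few reads for the filter.

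Scaling by TMM factors, which takes out a shift shared by most names, moved the median of all names to -0.00 and that of the 9 arms to -1.03. With these factors 8 of 9 arms were lower, against 34.2% of all names, and the split over all names was 171 higher and 193 lower in place of 93 and 272. With upper quartile factors 8 of 9 arms were again lower, against 27.8% of names, with 213 names higher and 157 lower. Those factors put the median of all names at 0.14 and that of the 9 arms at -0.85. On recovered reads edgeR called 8 of 9 arms lower, against 34.6% of names (173 higher and 195 lower), and DESeq2 8 of 9, against 33.5% (180 higher and 189 lower). The arm that did not pass was miR-136-5p in each of these 4 fits.

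Added together, the 10 arms made up 1252 ± 161 CPM at day 8 and 3463 ± 703 CPM at day 0 (SD, n = 6 at each age). The libraries ran from 1034 to 1451 CPM at day 8 and from 2527 to 4271 CPM at day 0, without overlap. miR-434, miR-127 and miR-136 carried nearly all of this. miR-434 held 48.5% ± 2.64 of the sum at day 8 and 42.1% ± 1.55 at day 0, miR-127-3p 31.3% ± 6.17 and 41.5% ± 2.33, and miR-136 16.9% ± 4.26 and 11.6% ± 1.84, day 8 first in each pair (SD, n = 6). The 2 remaining hairpins were minor, with miR-337 at 2.59% ± 0.234 at day 8 and 4.10% ± 0.290 at day 0, and miR-433 at 0.202% ± 0.0668 at day 8 and 0.379% ± 0.0475 at day 0 (SD, n = 6).

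**Figure D1:**
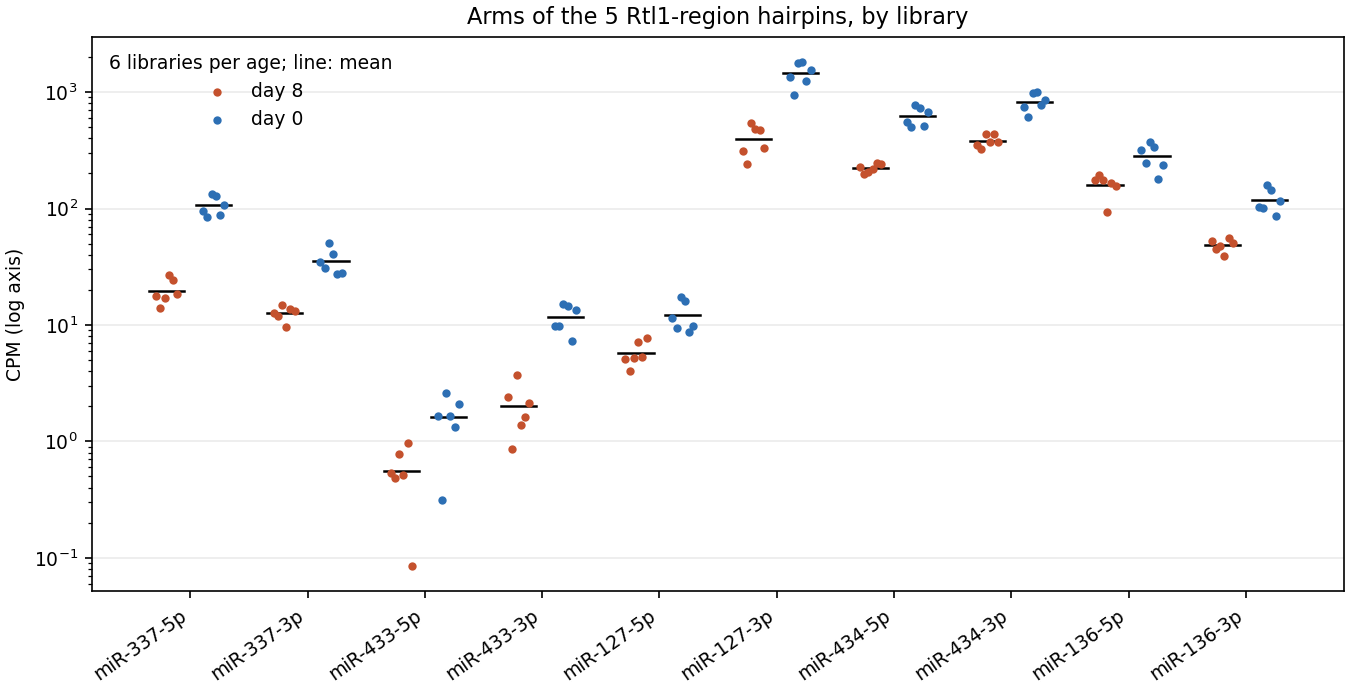
CPM of the 10 arms on a log axis, with 6 libraries at day 8 (left of each pair) and 6 at day 0 (right), each point 1 library and each line a mean. The day 8 points lie below the day 0 points without overlap except for miR-433-5p and miR-136-5p.

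miR-337 is the hairpin outside the Rtl1 exon, and its 5p arm was among the arms that fell most. It had the largest log2 change of the 9 with a pseudocount of 1 or 5, while miR-433-3p had the larger one with a pseudocount of 0.1 (-2.56 against -2.43), by edgeR (-2.17 against -2.03) and also by DESeq2. miR-337-5p ranged from 13.96 to 26.7 CPM at day 8 with a median of 18.1 CPM, and from 84.9 to 133 CPM at day 0 with a median of 101 CPM. The highest day 8 library was thus well under the lowest day 0 library. Its means were 19.7 ± 4.82 CPM at day 8 and 106 ± 20.9 CPM at day 0 (SD, n = 6), 5.38-fold lower at day 8. The log2 change was -2.38 (SE 0.17, limma adjusted p = 1.9e-08).

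miR-337-3p, the less abundant arm of that hairpin, fell less. It ranged from 9.61 to 14.7 CPM at day 8 (median 12.9 CPM) and from 27.5 to 50.1 CPM at day 0 (median 32.7 CPM). These ranges did not overlap either. The log2 change was -1.40 (SE 0.16, limma adjusted p = 2.0e-06).

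miR-433 was the scarcest hairpin. In mouse kidney, miR-433 is known from work on fibrosis, where it acts in the response to TGF-beta. miR-433-3p ranged from 0.857 to 3.68 CPM at day 8 (median 1.87 CPM) and from 7.34 to 15.1 CPM at day 0 (median 11.6 CPM), on 7 to 131 reads per library. All day 8 values were below all day 0 values, although 1 day 8 library was under the CPM minimum of 1. Its means of 2.01 ± 0.987 CPM at day 8 and 11.6 ± 3.10 CPM at day 0 (SD, n = 6) make it 5.78-fold lower at day 8, and the log2 change was -2.09 (SE 0.22, limma adjusted p = 1.4e-06).

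miR-433-5p was seen in every library but on 1 to 22 reads. It ranged from 0.0849 to 0.972 CPM at day 8 and from 0.315 to 2.61 CPM at day 0. The lowest day 0 library, replicate 2, lay within the day 8 range. On its CPM the exact permutation test, two-sided, gave p = 0.0152, where the smallest p the design allows is 0.00216. The lowest values rest on 1 read (day 8 replicate 6) and 2 reads (day 0 replicate 2), too few to tell from 0.

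miR-127-3p was the most abundant of the 10 arms at both ages. In human cancer cells it is known to act on BCL6. It ranged from 242 to 544 CPM at day 8 with a median of 402 CPM, and from 935 to 1813 CPM at day 0 with a median of 1456 CPM. Among the day 8 libraries replicate 2 was the lowest and replicate 3 the highest, and even the highest was well below the lowest day 0 library. Means were 398 ± 119 CPM at day 8 and 1446 ± 333 CPM at day 0 (SD, n = 6), with a log2 change of -1.88 (SE 0.21, limma adjusted p = 1.8e-06). By mean CPM it took place 120 among all names at day 8 and place 79 at day 0.

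miR-127-5p, its partner arm, was 103-fold less abundant over the 12 libraries. It ranged from 4.04 to 7.72 CPM at day 8 (median 5.26 CPM) and from 8.67 to 17.3 CPM at day 0 (median 10.6 CPM). The ages did not overlap, but the gap was small. The log2 change was -0.94 (SE 0.19, limma adjusted p = 0.00051). The exact permutation p was 0.00216 on CPM, 0.0216 on CPM divided by TMM factors and 0.0584 on CPM divided by upper quartile factors.

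miR-434 is a rodent hairpin with no counterpart annotated in humans, and both of its arms were abundant. miR-434-3p ranged from 325 to 437 CPM at day 8 (median 369.7 CPM) and from 605 to 1001 CPM at day 0 (median 815 CPM). The day 8 libraries lay close together and entirely below those of day 0. Means were 382 ± 45.8 CPM at day 8 and 829 ± 152 CPM at day 0 (SD, n = 6), with a log2 change of -1.10 (SE 0.13, limma adjusted p = 2.6e-06). miR-434-5p ranged from 198 to 248 CPM at day 8 (median 223 CPM) and from 506 to 772 CPM at day 0 (median 610.2 CPM). Its coefficient of variation at day 8, 8.84%, was the lowest of the 10 arms. The log2 change of this arm was -1.46 (SE 0.12, limma adjusted p = 9.9e-08).

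miR-136 is the hairpin nearest to the start codon of Rtl1, and its more abundant arm had the smallest fall of the 9. miR-136-5p ranged from 92.8 to 193 CPM at day 8 (median 171 CPM) and from 179.6 to 375 CPM at day 0 (median 282 CPM). The ages overlapped in that day 8 replicate 2, at 193 CPM, was above day 0 replicate 5, at 179.6 CPM. Means were 160.2 ± 35.2 CPM at day 8 and 282 ± 73.4 CPM at day 0 (SD, n = 6), with a log2 change of -0.81 (SE 0.20, limma adjusted p = 0.0026). This call depended on the scaling: limma gave -0.42 (adjusted p = 0.0661) with TMM factors and -0.24 (adjusted p = 0.295) with upper quartile factors. On recovered reads it was -0.43 by edgeR (adjusted p = 0.0604) and -0.40 by DESeq2 (adjusted p = 0.0718).

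miR-136-3p passed under every scaling. It ranged from 38.9 to 55.4 CPM at day 8 (median 48.9 CPM) and from 85.5 to 158 CPM at day 0 (median 109.9 CPM). The groups did not overlap. The log2 change was -1.25 (SE 0.15, limma adjusted p = 3.7e-06), and -0.86 with TMM factors.

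**Figure D2:**
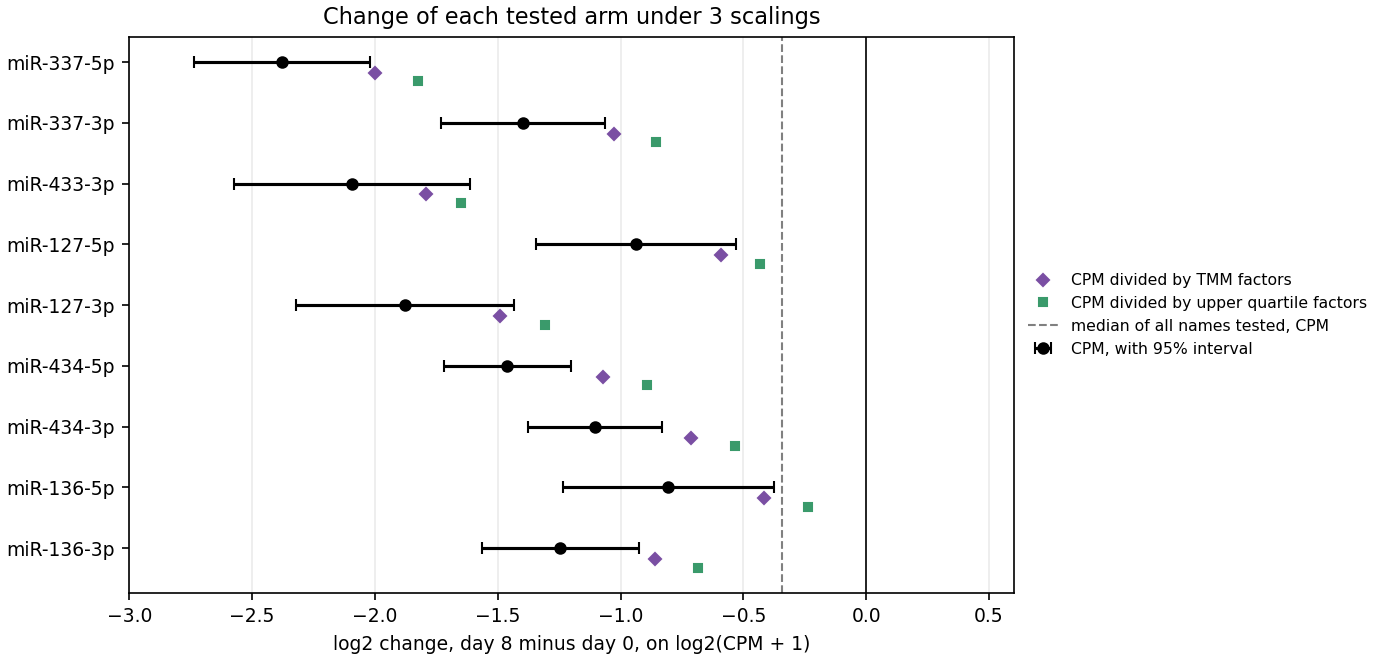
Log2 change (day 8 minus day 0) of the 9 tested arms in CPM with its 95% interval (black), and the same change after TMM (purple) and upper quartile (green) scaling. The dashed line is the median of all names tested in CPM, -0.34, and the 9 CPM values lie from -2.38 to -0.81, all to its left.

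The more abundant arms of the 5 hairpins did not all fall by the same factor. For each hairpin the more abundant arm was taken, and the log2 ratio of 2 such arms was compared between the ages in the 10 possible pairs by a two-sided exact permutation test, with Benjamini-Hochberg adjustment over the pairs. Of the 10 pairs 7 differed. Ratios with miR-433-3p, the scarcest of the 5 arms, depended on the pseudocount of 1 CPM added to each value. In order along the miRNA strand, the log2 changes of these arms were -2.38 for miR-337-5p, -2.09 for miR-433-3p, -1.88 for miR-127-3p, -1.10 for miR-434-3p and -0.81 for miR-136-5p.

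The ends of the row differed at each pseudocount tried (0.1, 1 and 5). The log2 ratio of miR-337-5p to miR-136-5p was -2.95 ± 0.669 at day 8 and -1.38 ± 0.262 at day 0 (SD, n = 6), a difference of -1.57 (95% interval -2.17 to -0.92, exact permutation test, adjusted p = 0.00361). miR-127-3p and miR-434-3p, the 2 most abundant arms, also parted. Their log2 ratio was 0.01 ± 0.315 at day 8, so they were about equal, and 0.79 ± 0.0991 at day 0, when miR-127-3p led in every library. That difference was -0.78 (95% interval -1.07 to -0.47, exact permutation test, adjusted p = 0.00361).

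Some neighbours in the row were not told apart with a pseudocount of 1. miR-337-5p and miR-433-3p differed by -0.29 (95% interval -0.85 to 0.25, exact permutation test, adjusted p = 0.32). With a pseudocount of 5 this pair was called, at -0.93 (exact permutation test, adjusted p = 0.00722), and with 0.1 the difference was 0.13, the other way round (adjusted p = 0.706, exact permutation test). miR-433-3p and miR-127-3p differed by -0.21 (95% interval -0.70 to 0.25, exact permutation test, adjusted p = 0.333). That pair was called at both other pseudocounts but in opposite directions, at -0.68 with 0.1 (adjusted p = 0.0406) and 0.63 with 5 (adjusted p = 0.0144, exact permutation tests). The place of miR-433-3p in the order of falls is therefore not settled by these values. miR-434-3p and miR-136-5p differed by -0.30 (95% interval -0.78 to 0.19, exact permutation test, adjusted p = 0.249). It stayed uncalled at the other pseudocounts, at -0.30 with 0.1 and -0.31 with 5. The other arms do not follow the order of the row, with miR-337-3p at -1.40, miR-127-5p at -0.94, miR-434-5p at -1.46 and miR-136-3p at -1.25.

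**Figure D3:**
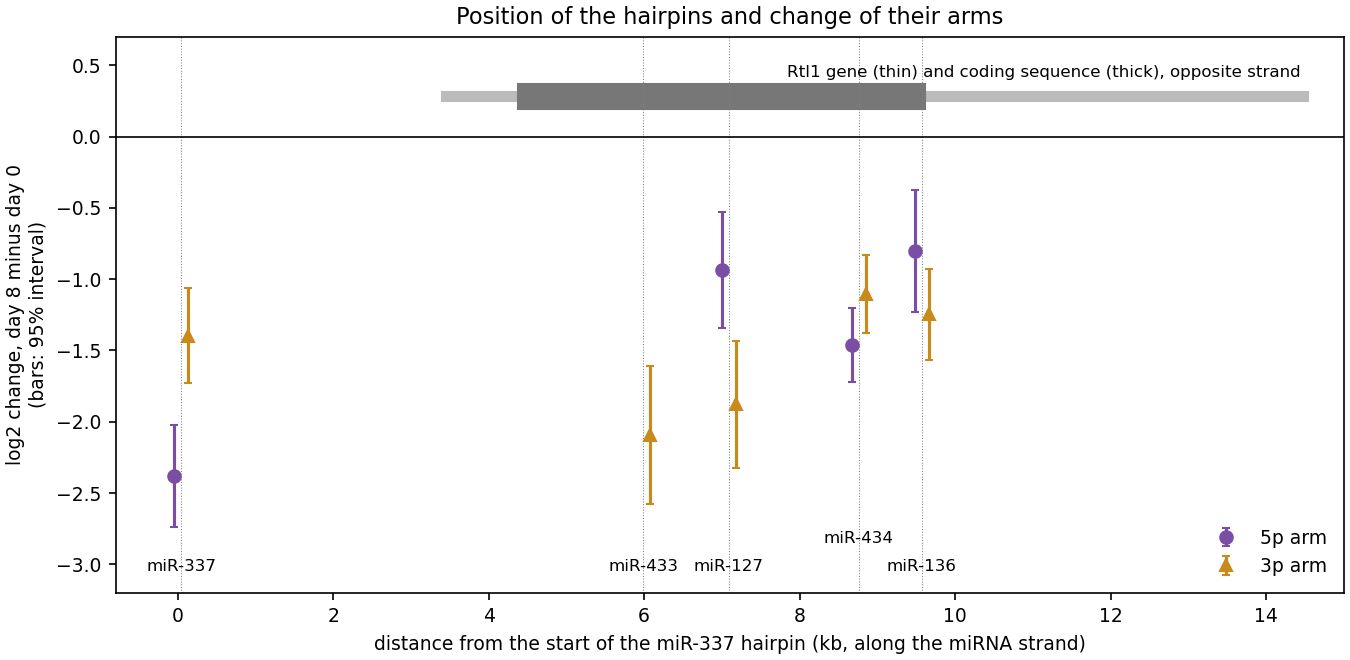
Log2 change of the 5p (circles) and 3p (triangles) arms with 95% intervals, against the distance of each hairpin from the start of miR-337 in kb, with the Rtl1 gene on the opposite strand drawn above. The hairpin of miR-337 lies outside the gene, the other 4 within its coding sequence, and the more abundant arms run from -2.38 at miR-337 to -0.81 at miR-136.

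The 2 arms of 1 hairpin come from the same precursor, and their balance also changed. Over all hairpins with both arms at a mean of at least 5 CPM, the log2 ratio of 5p to 3p differed between the ages in 68 of 112, or 60.7% (limma, adjusted p under 0.05). miR-337, miR-127, miR-434 and miR-136 entered this test and all 4 changed, in both directions. For miR-337 the ratio was 0.59 ± 0.446 at day 8 and 1.57 ± 0.194 at day 0 (SD, n = 6), a difference of -0.98 (SE 0.18, limma adjusted p = 0.000187), the 5p arm losing more. The ages were separate, but only just, since day 8 replicate 4 reached 1.38 and the lowest day 0 library was at 1.39.

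For miR-127 the log2 ratio was -5.85 ± 0.439 at day 8 and -6.80 ± 0.258 at day 0 (SD, n = 6), a difference of 0.94 (SE 0.19, limma adjusted p = 0.000345). The 3p arm, by far the major one, lost more there. For miR-434 the ratio was -0.77 ± 0.174 at day 8 and -0.41 ± 0.116 at day 0 (SD, n = 6), a difference of -0.36 (SE 0.13, limma adjusted p = 0.0197). For miR-136 it was 1.68 ± 0.287 at day 8 and 1.24 ± 0.215 at day 0 (SD, n = 6), a difference of 0.44 (SE 0.15, limma adjusted p = 0.0182). The shift was toward the 5p arm in miR-136 and toward the 3p arm in miR-434. The 5p arm of miR-433 was under the minimum, and its ratios of -0.91 ± 0.519 at day 8 and -2.30 ± 0.425 at day 0 (SD, n = 6) are given without a test. They depend on the added 1 CPM, as the 5p and 3p arms averaged only 0.562 and 2.01 CPM at day 8.

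**Figure D4:**
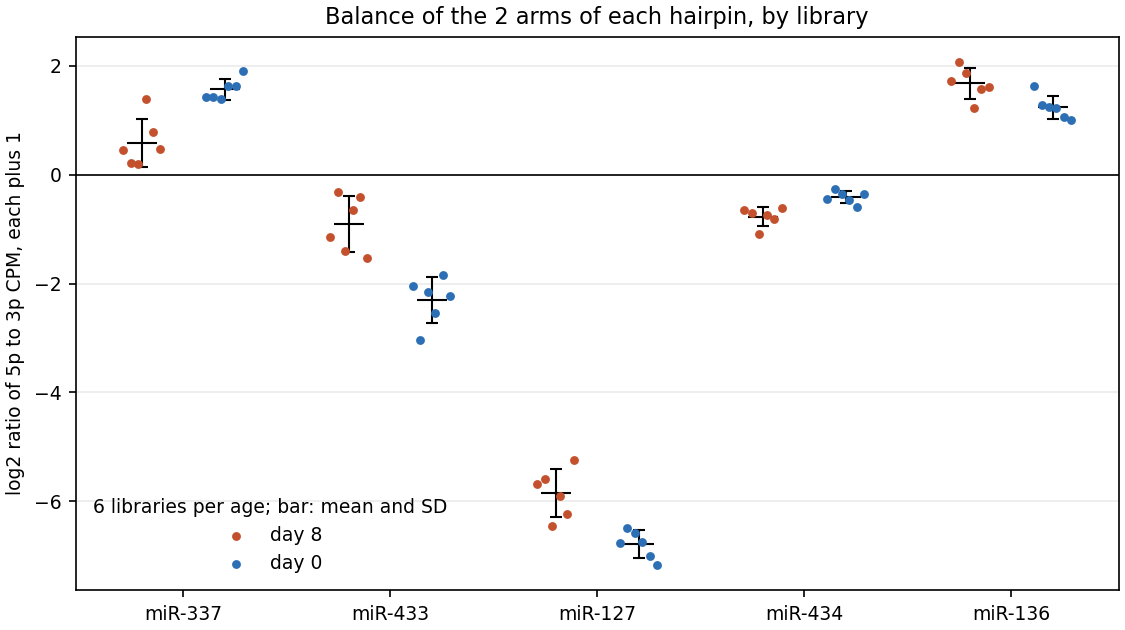
Balance of the arms in the 5 hairpins, as log2 of 5p over 3p after adding 1 CPM to both, for 6 libraries at day 8 (left) and 6 at day 0 (right), with mean and SD. The day 8 mean is the lower one for miR-337 and miR-434, with means of 0.59 and -0.77, and the higher one for miR-433, miR-127 and miR-136, with means of -0.91, -5.85 and 1.68.

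At day 0 most arms ranked the libraries alike. There, replicate 3 was among the 2 highest libraries for 10 of the 10 arms and replicate 4 for 9, while replicate 5 was among the 2 lowest for 9 and replicate 2 for 8. At day 8, replicate 2 was among the 2 lowest for 9 arms and yet the highest for miR-136-5p. Day 8 replicate 4 was the lowest for both arms of miR-136 and for miR-337-3p and the highest for miR-337-5p.

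**Figure D5:**
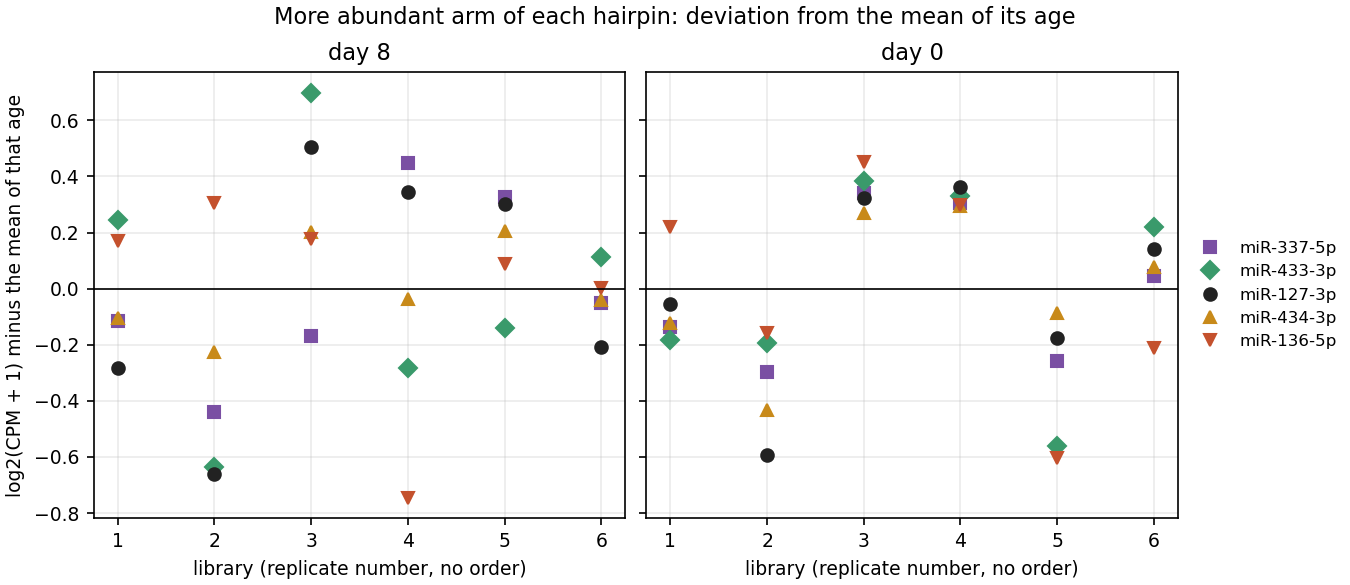
Deviation of the more abundant arm of each hairpin from the mean of its age, log2(CPM + 1), by library at day 8 (left) and day 0 (right). At day 0 the 5 arms are all high in replicates 3 and 4 and all low in replicates 2 and 5, while at day 8 replicate 4 has miR-337-5p at 0.45 and miR-136-5p at -0.74.

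The 5 names whose library-to-library pattern was most like that of miR-127-3p came from the same imprinted region, as did 8 of the first 25. Likeness was the lower of the Pearson correlations of log2(CPM + 1) within the 6 day 8 and within the 6 day 0 libraries, taken over 306 other names with a mean of at least 20 CPM, 25 of them from the region. The first 5 were miR-409-3p (0.98 at day 8 and 0.95 at day 0), miR-382-5p (0.99 and 0.92), miR-299a-5p (0.89 and 0.95), miR-299a-3p (0.84 and 0.96) and miR-411-5p (0.86 and 0.83, day 8 first in each pair). Names from outside the region came soon after, miR-339-5p (0.83 and 0.92) and the muscle marker miR-133a-3p (0.82 and 0.84), named here after their values were seen. Among the 9 other arms described here, miR-434-3p was the most alike, at 0.87 at day 8 and 0.99 at day 0, and miR-136-5p the least, at -0.45 and 0.58. These are descriptions over 6 libraries at each age, and all names in a library share its depth and composition.

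The rest of the Dlk1-Dio3 miRNAs fell too. Of 54 tested names from the other hairpins of the region, 52 were lower and 0 higher at day 8, with a median log2 change of -1.69. Over all names tested 48.2% were lower. Some of the 54 passed the filter through day 0 alone, such as miR-410-5p, at 0.284 CPM at day 8 and 3.06 CPM at day 0. For such names a rise could not have been called, so the count is partly set by the filter. Of the 54, 7 come from hairpins beside or between the 5 described here, miR-431 among them, with 7 lower and a median of -2.12. Without the arms of miR-431, 5 of 5 were lower, again with a median of -2.12. The other 47 come from the distal group that includes miR-379, miR-382 and miR-410, with 45 lower and a median of -1.67. The arms described here held 34.0% ± 1.38 of the region's CPM at day 8 (31.9 to 35.4%) and 27.3% ± 1.30 at day 0 (25.2 to 28.9%; SD, n = 6), the ranges being apart. miR-431-5p, from the hairpin next to miR-433 in the Rtl1 coding sequence, was at 129.9 ± 30.3 CPM at day 8 and 686 ± 142 CPM at day 0 (SD, n = 6), a log2 change of -2.39.

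Markers of some other tissues moved with age as well, where 48.2% of all names tested were called lower and 16.5% higher. Of the 6 striated muscle miRNAs listed, 4 could be tested and 4 fell, and their summed CPM was 405 to 502.5 at day 8 and 498.7 to 1992 at day 0. Both liver miRNAs, the arms of miR-122, fell, with sums of 15.2 to 333 CPM at day 8 and 481 to 3296 CPM at day 0. miR-133b-3p, one of the muscle list, was too low to test and was listed at 0 in some day 8 libraries. Of the neural list 1 of 3 tested names fell, with sums of 4006 to 5231 CPM at day 8 and 4049 to 6786 CPM at day 0, and neuronal miR-124-3p averaged 0.145 CPM at day 8 and 0.579 CPM at day 0. Of 4 leukocyte names 0 were lower and 2 higher, with sums of 2823 to 5327 CPM at day 8 and 2101 to 4289.9 CPM at day 0. Of 4 stromal names tested 1 was lower and 1 higher, with sums of 44278 to 50830.1 CPM at day 8 and 37524 to 42542 CPM at day 0. The erythroid names summed to 411 to 840.4 CPM at day 8 and 332 to 969.98 CPM at day 0. Of the 2 endocrine names 1 was lower and 1 higher, with sums of 168 to 232 CPM at day 8 and 231 to 475 CPM at day 0. The part of other tissue in the level of the 10 arms was not tested.

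The study asked about the mineralocorticoid receptor, and the 3′ untranslated region of Nr3c2 was searched for the 7 bases complementary to each seed. In the longest annotated one, of 2482 bases, 5 of the 10 arms had a match, at 6 places in all. The share of the 2593 untranslated regions within 20% of that length that hold the same 7 bases ran from 10.2% (miR-434-3p) to 24.9% (miR-337-3p) among these 5 arms. For 4 arms the match was followed by an A, an 8-base match, which 3.12% (miR-434-3p, GGTTCAAA), 5.21% (miR-433-3p, ATCATGAA), 7.29% (miR-136-5p, AATGGAGA) and 7.44% (miR-337-3p, GGAGCTGA) of those regions hold. miR-127-3p, the most abundant arm, had none for its 7 bases (GGATCCG), which 2.51% of the regions hold.

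These 4 sites are shown since they are where the arms could pair with the message the study asked about. They are on the plus strand of chromosome 8 (GRCm38), read from the GENCODE M21 transcript with the 8-base match in capitals:
miR-434-3p, chr8:77242875-77242896: gcttgttttcaaagGGTTCAAA
miR-136-5p, chr8:77243985-77244006: catgagtcggtcagAATGGAGA
miR-433-3p, chr8:77244300-77244321: atcagtactcagtgATCATGAA
miR-337-3p, chr8:77244611-77244632: gtttctgggggaaaGGAGCTGA
A match is a description of letters and not of binding. Of these 4 arms, miR-434-3p and miR-136-5p were at 382 and 160.2 CPM at day 8, and miR-337-3p and miR-433-3p at 12.6 and 2.01 CPM. The message of Nr3c2 was not analysed here.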

How the data were processed

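Per the labels' protocols, RNA came from a NucleoSpin miRNA kit, and QIAGEN's QIAseq miRNA kit was used for the libraries. The submitters' processing notes name FastQC. Not given in the sources used here are the aligner, genome build, miRBase release and any use of molecular identifiers. The authors deposited CPM per mature miRNA name, and each library sums to 1000000. Within 0.001 of a read, 100.0% of the values are whole multiples of 1 read, which gave the read numbers. No library was a copy of another. Whether the read numbers count reads or molecules is not known, and reads are not independent molecules. Limits from these numbers cover counting error only, and libraries capture different miRNAs with unequal efficiency.

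Names that reached 1 CPM in 6 or more libraries were tested with limma 3.58.1 (R 4.3.3, mean-variance trend) on log2(CPM + 1), with Benjamini-Hochberg adjustment at 0.05 over all of them. edgeR 4.0.16 and DESeq2 1.42.0 were run on the recovered reads as alternatives. Exact permutation tests used all assignments of the 12 libraries to the ages. The 95% intervals of differences between arms come from inverting that test. Scripts were tested on simulated data. The named miRNAs are all 10 arms, miR-431, and the 5 names most like the most abundant arm; any other was chosen after its values were seen. The members and lists were chosen with earlier results of these data known. Gene positions are from GENCODE M21 (GRCm38) and sequences from RefSeq (GRCm38.p6); the authors' build is not known, so only names and sequences link them to the table.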

Additional observations from a re-analysis of the deposited data

Results flagged for a closer look

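Among the arms, their sum and the 5p to 3p ratios, 32 groups of 6 libraries were looked at, and 1 held a library far from the others, where chance gives about 1 in 20. miR-136-5p in day 8 replicate 4 was at 92.8 CPM, while the other 5 day 8 libraries lay between 156 and 193 CPM. The gap to the nearest of them was 0.633 of the whole range, just past Dixon's critical value for 6 samples. The same library was the lowest of its age for miR-136-3p, at 38.9 CPM, but the highest for miR-337-5p, at 26.7 CPM. Without it, the log2 change of miR-136-5p was -0.66 (limma adjusted p = 0.0036), and the difference in change between miR-127-3p and miR-136-5p was -1.29 in place of -1.07.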

How the results depend on the processing

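The counts of arms lower (9) and higher (0) and of hairpins with a changed arm ratio (4) kept within 1.5 times their value under every alternative run, also without any one of the 12 libraries, and no alternative turned the direction of an arm or of a 5p to 3p ratio. Of the pairs, 7 differed with a pseudocount of 1 and 8 with 0.1 or 5, but not the same ones. The difference between miR-337-5p and miR-433-3p turned to 0.13 with a pseudocount of 0.1, and that between miR-433-3p and miR-127-3p turned to 0.63 with a pseudocount of 5. With 5, the pair of miR-433-3p and miR-434-3p lost its call (-0.14, exact permutation test, adjusted p = 0.219), the difference between miR-433-3p and miR-136-5p was -0.45 in place of -1.29, and that between miR-337-5p and miR-127-3p -0.30 in place of -0.50. With 0.1, the largest difference was -1.75, between miR-433-3p and miR-136-5p. Leaving out a library changed no pair's call. The sum of the 10 arms at day 8 was 0.362 of that at day 0, and 0.474 of it with TMM factors, a shift that follows from the scaling itself. Without any one library it ran from 0.343 to 0.379. miR-136-5p, whose values are given above, was the 1 arm to lose its call, in 4 of 20 alternatives. The calls of miR-433-3p and miR-127-5p rest on 7 to 131 and 27 to 146 reads per library, and neither passed a minimum of 10 CPM in 6 libraries. With no filter miR-433-5p was tested and passed (log2 change -0.70, limma adjusted p = 0.0388). No paired analysis was possible because each sample's title number occurs once, so the ages share none.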
